A study of Homo sapiens with 14 samples.

Results

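Interferon response genes were followed across the 5 groups of an RNA sequencing study of Jurkat cells, an established line of T-cell acute lymphoblastic leukaemia. The set holds 39 genes chosen by symbol, and each symbol matched 1 row of the 61541 rows in the deposited count table. Of the 39, 37 passed the filter on low counts and were tested together with all other genes that passed it, 18963 in all. MX1 and IFI44L did not pass it.

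In one arm of the study, cells treated with APS-2-79, an inhibitor of KSR (KSRi, 3 libraries), were set against cells that received DMSO alone (DMSO, 3 libraries). APS-2-79 binds the pseudokinase domain of KSR proteins, which are scaffolds of the RAF, MEK and ERK kinases. The other arm set cells carrying 1 of 2 guides against KSR2 (guide 1 and guide 2, 3 libraries each) against cells with a non-targeting control (NT, 2 libraries). All groups are the same line, and the sources used here do not give doses, exposure times or guide sequences. Sample titles call the second arm a knockout, the design text an interference, and the NT library names a hairpin, so the groups are named here only by guide. Whether replicates were separate cultures is not stated, so p-values measure the spread between these libraries, which may be technical.

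Interferons are cytokines released when cells sense viral nucleic acid. A type I interferon binds the receptor IFNAR1 with IFNAR2, the attached kinases TYK2 and JAK1 become active, and a complex that includes STAT2 and IRF9 enters the nucleus. There it binds the interferon-stimulated response element (ISRE) in promoters of genes that block viral entry, translation and replication. IRF7 and IRF1 are transcription factors that act both up- and downstream of interferon, and T cells also hold a basal level of many of these genes without added interferon.

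The libraries held 21710466 to 45897075 counts each. All 10 T cell markers averaged at least 1 CPM (the count scaled to library size, here with TMM factors) in every group, with summed levels of 2407 to 3084 CPM in KSRi, 2373 to 2451 CPM in DMSO, 2003 to 2345 CPM with guide 1, 2191 to 2299 CPM with guide 2 and 2143 to 2206 CPM in NT. All 6 myeloid markers averaged under 1 CPM in every group, with CSF1R at 0, as did 4 of 5 B cell markers (all but CD79A, at 24.0 ± 1.05 CPM in KSRi and 22.3 ± 0.607 CPM in DMSO, and 53.7 ± 8.96 CPM with guide 1, 52.2 ± 5.64 CPM with guide 2 and 57.3 ± 14.9 CPM in NT). Of the 4 plasmacytoid dendritic cell markers, 3 averaged under 1 CPM, and the list, carried by TCF4, summed to 5.59 to 7.75 CPM in KSRi and 10.2 to 10.8 CPM in DMSO. Of the 6 epithelial and stromal markers, 5 averaged under 1 CPM, with EPCAM and KRT19 at 0, and the list, carried by COL1A1, summed to 9.13 to 13.8 CPM in KSRi and 6.15 to 6.70 CPM in DMSO. The part of TCF4 and COL1A1 in the results was not tested. KSR2 itself had 0.452 to 0.663 CPM with guide 1 and 0.730 to 0.822 CPM with guide 2, against 28.9 and 30.1 CPM in NT. In the inhibitor arm it had 33.5 to 35.6 CPM in KSRi, against 34.8 to 39.3 CPM in DMSO.

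One library stood apart from its group. Of 11077 genes with a mean of at least 5 CPM, 364 lay at least 1.5-fold from both other KSRi libraries in KSRi replicate 1, and 310 of these lay above them. In the other libraries of a group of 3 the number was 4 to 50 genes. Among the 364, which are 3.29% of these genes, were 3 of the 27 members at that level, SAMD9, SAMD9L and SP100. Results that move with this library are given with and without it.

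ISRE letters were frequent in the promoters of the set. RefSeq promoters of the GRCh38.p14 build, running from 250 bases before to 50 bases after a start site, were at hand for 29 of the 39 genes (37 promoters). The core letters, GAAA then any 2 bases then GAAA, searched on both strands, stood in 24 of these 37 promoters (64.9%), against 1255 of all 35116 promoters (3.57%). The core letters TTCNNNGAA of the gamma-activated sequence (GAS), the element of the interferon-gamma branch, read the same on both strands and stood in 10 of the 37 (27%), against 7.66% of all promoters. By gene, 20 had ISRE letters, 9 had GAS letters, 5 had both and 5 had neither. A match describes the letters of the window and no more. Pairs of GAAA at other spacings were not counted.

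The following stretches carry ISRE letters in genes that the results below turn on, with the matches in capitals and each read 5′ to 3′ along the strand of its gene. BST2 lies at chr19:17405730-17405775 on the minus strand and ISG15 at chr1:1013369-1013414 on the plus strand, and each holds a pair of overlapping matches. IFI6 lies at chr1:27672261-27672363 on the minus strand and holds 3 matches. ISG20 lies at chr15:88638932-88638971 on the plus strand. All 4 genes were higher in KSRi.
BST2: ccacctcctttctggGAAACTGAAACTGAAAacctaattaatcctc
ISG15: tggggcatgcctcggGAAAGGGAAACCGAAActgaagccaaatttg
IFI6: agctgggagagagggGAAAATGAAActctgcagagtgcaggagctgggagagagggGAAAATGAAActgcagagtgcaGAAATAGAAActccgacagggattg
ISG20: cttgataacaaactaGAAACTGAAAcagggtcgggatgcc

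The same letters stood in genes that were lower in KSRi, or whose KSRi libraries disagreed. EIF2AK2 lies at chr2:37156962-37157001 on the minus strand, IFI27 at chr14:94110613-94110665 on the plus strand and SAMD9 at chr7:93118091-93118130 on the minus strand. IFI27 holds a match on each strand, and its GAS letters overlap both.
EIF2AK2: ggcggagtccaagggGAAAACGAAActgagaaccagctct
IFI27: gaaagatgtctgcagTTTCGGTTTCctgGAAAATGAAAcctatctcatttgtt
SAMD9: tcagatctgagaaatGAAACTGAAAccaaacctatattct

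One match was shared by a gene pair. DTX3L on the plus strand and PARP9 on the minus strand start head to head, and both promoters hold the match at chr3:122564317-122564356, read here from either side.
DTX3L: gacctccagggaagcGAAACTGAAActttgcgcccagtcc
PARP9: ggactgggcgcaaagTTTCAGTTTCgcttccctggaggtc

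Most of the set changed with the inhibitor, and most of the changed genes were higher. Against DMSO, 23 of the 37 tested genes were called in KSRi by edgeR's quasi-likelihood test at an adjusted p under 0.05, 19 higher and 4 lower. Among all genes tested 40.7% were called, 22.0% higher and 18.7% lower. The median log2 change was 0.32 over the set and 0.02 over all genes. The KSRi libraries all lay above the DMSO libraries for 18 of the 37 genes, all lay below them for 4, and overlapped them for 15. Among all genes tested the groups did not overlap for 46.9%, with KSRi above for 25% and below for 21.9%. In bulk libraries such as these, fewer cells that express a gene and less of its RNA per cell cannot be told apart. The share of mitochondrial counts was 2.51%, 2.06% and 1.12% in KSRi and 1.45%, 1.36% and 1.27% in DMSO, and its part in these results was not tested.

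**Figure D1:**
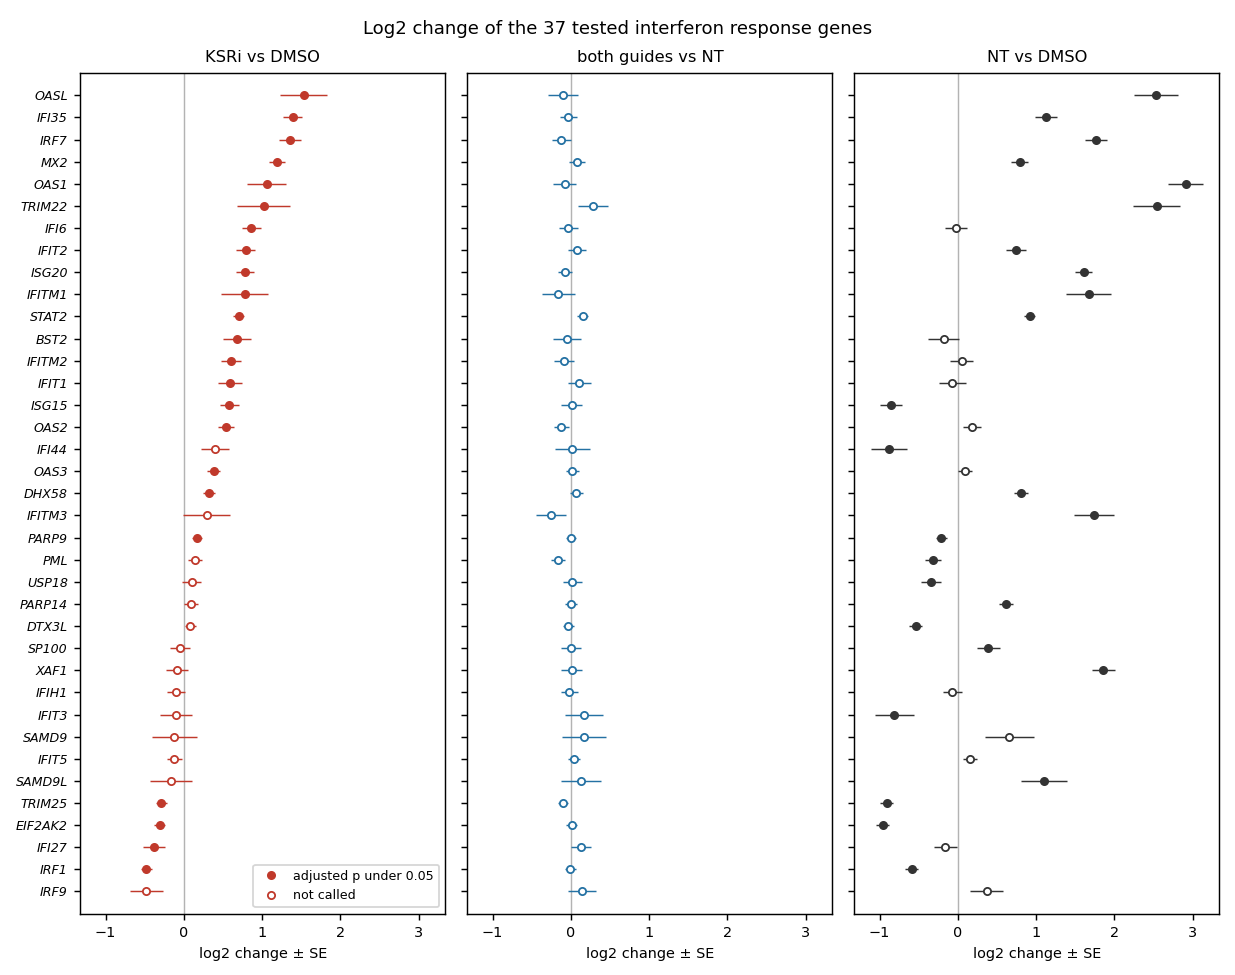
Log2 change and standard error of the 37 tested genes (rows) in KSRi against DMSO, in both guides against NT and in NT against DMSO. Filled points passed an adjusted p of 0.05: 23 with the inhibitor, 0 with the guides and 26 between the controls.

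The 4 transcription factors of the pathway split. STAT2, the signal carrier of the type I receptor (chr12:56341597-56360155, minus strand), had 53.8, 58.3 and 57.9 CPM in KSRi, against 34.2, 34.5 and 36.0 CPM in DMSO. IRF7, the factor that amplifies interferon production (chr11:612553-615999, minus strand), had 8.72, 10.4 and 13.6 CPM in KSRi, against 4.10, 4.20 and 4.27 CPM in DMSO. For both genes every KSRi library lay above every DMSO library. By edgeR, STAT2 rose by a log2 change of 0.70 (SE 0.07, adjusted p = 5.53e-07) and IRF7 by 1.36 (SE 0.14, adjusted p = 9.08e-07).

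IRF1 moved the other way. This factor, the classical early target of interferon-gamma (chr5:132481609-132490798, minus strand), had 78.2, 92.5 and 90.9 CPM in KSRi, against 124, 114 and 127 CPM in DMSO. All KSRi libraries lay below all DMSO libraries, and the log2 change was -0.48 (SE 0.07, edgeR adjusted p = 6.30e-05). Its antisense neighbour IRF1-AS1 overlaps 22% of the IRF1 exon bases and also fell, to 24.0 ± 4.88 CPM in KSRi against 39.3 ± 3.67 CPM in DMSO (SD, n = 3 each), with a log2 change of -0.71 (SE 0.11, edgeR adjusted p = 0.000110). The sources used here do not say whether the counts used strand, so reads of the pair may not be told apart.

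IRF9, the DNA-binding partner of STAT2, was scarce. It had 1.38, 1.06 and 0.967 CPM in KSRi, against 1.34, 1.49 and 1.89 CPM in DMSO, so that replicate 1 overlapped the DMSO range. Its log2 change was -0.48 (SE 0.21) and it was not called (edgeR adjusted p = 0.0825). Without KSRi replicate 1 it passed, with -0.64 (SE 0.24, edgeR adjusted p = 0.0357). A second coding gene on the same strand, ENSG00000259529, covers 48.4% of the IRF9 exon bases. It averaged 0.784 ± 0.164 CPM in KSRi and 1.57 ± 0.129 CPM in DMSO (SD, n = 3 each) and fell, with a log2 change of -1.0 (SE 0.24, edgeR adjusted p = 0.00317), so the split of reads between them is uncertain.

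**Figure D2:**
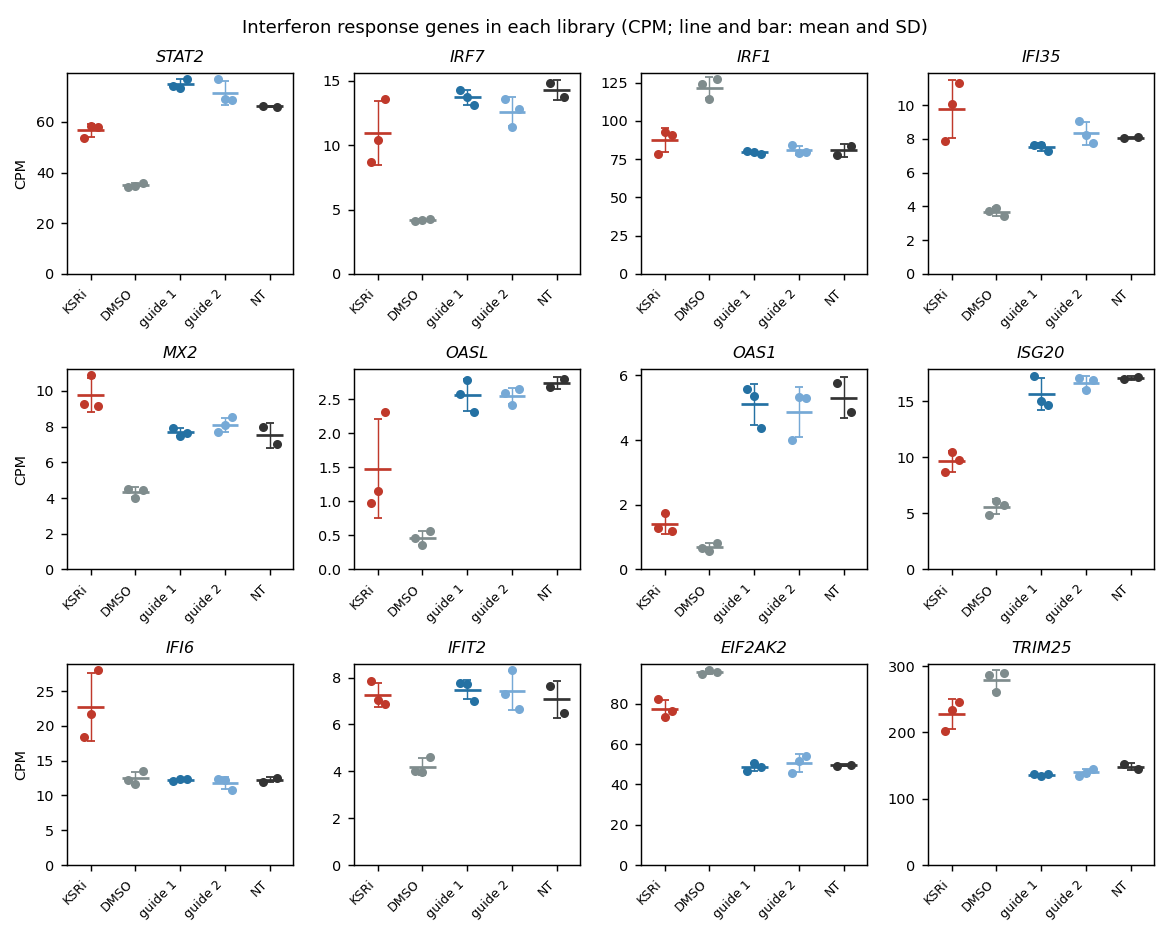
CPM of 12 interferon response genes in each library (points), with the mean (line) and SD (bar) of each group, on axes that start at 0. KSRi points lie above DMSO points for 9 of these genes and below them for IRF1, EIF2AK2 and TRIM25, while the points of both guides lie near those of NT.

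Antiviral effectors rose as well, among them IFI35 and MX2. IFI35, which pairs with the signalling protein NMI, had 7.89, 10.1 and 11.3 CPM in KSRi, against 3.73, 3.93 and 3.44 CPM in DMSO. MX2, a dynamin-like GTPase that restricts HIV, had 9.29, 10.9 and 9.18 CPM in KSRi, against 4.52, 4.0 and 4.47 CPM in DMSO. Neither gene had overlapping groups. IFI35 rose by a log2 change of 1.39 (SE 0.12, edgeR adjusted p = 2.71e-07), which is 2.62-fold, and MX2 by 1.19 (SE 0.10, edgeR adjusted p = 1.88e-07).

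The close relative MX1 gave too few counts to test. It had 1, 0 and 0 counts in KSRi, against 1, 3 and 2 in DMSO, and 2 to 5 in each library of the other arm. IFI44L, also untested, had 7, 3 and 2 counts in KSRi, against 7, 5 and 4 in DMSO. Its neighbour IFI44 had 2.75, 3.15 and 2.90 CPM in KSRi, against 2.39, 1.88 and 2.41 CPM in DMSO. The IFI44 groups did not overlap, yet its log2 change of 0.40 (SE 0.18) was not called (edgeR adjusted p = 0.0836).

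All 4 genes of the 2′-5′-oligoadenylate synthetase family were called higher. OAS1, OAS2 and OAS3 make 2′-5′-linked oligoadenylates when they bind double-stranded RNA, and OASL is a relative without that activity that aids RIG-I. OASL, on chr12:121019111-121039242, had 0.973, 1.16 and 2.31 CPM in KSRi, against 0.460, 0.364 and 0.569 CPM in DMSO. OAS1 had 1.28, 1.76 and 1.18 CPM in KSRi, against 0.670, 0.562 and 0.828 CPM in DMSO. These are low levels, and replicate 3 of KSRi held the top of the OASL values, but no DMSO library reached any KSRi library for either gene. The log2 changes were 1.53 for OASL (SE 0.30, edgeR adjusted p = 0.000681) and 1.06 for OAS1 (SE 0.25, edgeR adjusted p = 0.00291).

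The more abundant family members moved less. OAS2 averaged 17.2 ± 1.91 CPM in KSRi and 11.8 ± 1.05 CPM in DMSO, and OAS3 averaged 40.1 ± 2.81 CPM in KSRi and 30.8 ± 2.01 CPM in DMSO (SD, n = 3 each). Their log2 changes were 0.54 (SE 0.10, edgeR adjusted p = 0.000387) and 0.38 (SE 0.08, edgeR adjusted p = 0.00135). The transcripts of the 4 genes share no run of 50 bases.

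The IFIT genes, whose products bind foreign RNA ends, lie together on chromosome 10 and did not move together. IFIT2 had 7.85, 7.06 and 6.88 CPM in KSRi, against 4.02, 3.97 and 4.60 CPM in DMSO, a log2 change of 0.79 (SE 0.12, edgeR adjusted p = 5.72e-05). IFIT1 had 4.63, 4.08 and 4.51 CPM in KSRi, against 3.01, 2.51 and 3.21 CPM in DMSO, a log2 change of 0.59 (SE 0.15, edgeR adjusted p = 0.00504). Both were separated between the groups. IFIT3 averaged 1.46 ± 0.384 CPM in KSRi and 1.57 ± 0.190 CPM in DMSO, and IFIT5 averaged 29.2 ± 3.84 CPM in KSRi and 31.8 ± 1.28 CPM in DMSO (SD, n = 3 each). Neither was called, with log2 changes of -0.10 (95% interval -0.54 to 0.34) for IFIT3 and -0.12 (-0.30 to 0.07) for IFIT5. Without KSRi replicate 1, IFIT5 passed with -0.22 (edgeR adjusted p = 0.0260). IFIT1, IFIT2 and IFIT3 overlap LIPA on the opposite strand, which shares 0%, 1.58% and 0% of their exon bases. LIPA averaged 172 ± 25.6 CPM in KSRi and 92.7 ± 5.61 CPM in DMSO (log2 change 0.89, SE 0.09, edgeR adjusted p = 1.80e-06). Its part in the counts of these genes was not tested.

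IFI6, ISG20 and ISG15 were higher as well. IFI6, a membrane protein that protects against flaviviruses, had 18.4, 21.7 and 28.0 CPM in KSRi, against 12.2, 11.7 and 13.5 CPM in DMSO. ISG20, an RNA exonuclease, had 8.66, 10.5 and 9.78 CPM in KSRi, against 4.86, 6.15 and 5.77 CPM in DMSO. The groups did not overlap for either gene, and the log2 changes were 0.86 for IFI6 (SE 0.12, edgeR adjusted p = 3.00e-05) and 0.78 for ISG20 (SE 0.11, edgeR adjusted p = 2.78e-05). ISG15, the ubiquitin-like modifier, had 40.7, 46.9 and 60.4 CPM in KSRi, against 32.7, 31.1 and 34.8 CPM in DMSO, a log2 change of 0.58 (SE 0.12, edgeR adjusted p = 0.00113).

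BST2, or tetherin, which holds budding virions at the cell surface, varied widely within both groups. It had 29.7, 40.0 and 53.2 CPM in KSRi, against 30.0, 17.8 and 28.5 CPM in DMSO. The lowest KSRi library lay just under the highest DMSO library. The log2 change was 0.68 (SE 0.18, edgeR adjusted p = 0.00649). Per kilobase of exon, ISG15 and BST2 were the 2 most abundant members in KSRi, at 52.4 and 36.6 CPM per kb, and ISG15 was the most abundant in DMSO, at 35.0 CPM per kb.

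The IFITM genes, which block fusion of virus with the cell, share sequence. IFITM1 and IFITM2 also overlap in the annotation on the same strand, where they share 351 exon bases, 32.5% of those of IFITM1. IFITM1 has 29.4% of its 50-base runs in common with IFITM2, so reads may be split between them. IFITM2 had 7.78, 8.16 and 7.73 CPM in KSRi, against 5.23, 5.22 and 5.17 CPM in DMSO, a log2 change of 0.60 (SE 0.13, edgeR adjusted p = 0.00173). IFITM1 had 33, 40 and 10 counts in KSRi, against 16, 19 and 15 in DMSO. Its log2 change of 0.78 (SE 0.30) passed narrowly (edgeR adjusted p = 0.0476), with an adjusted p as high as 0.232 under the alternatives tried, which was without DMSO replicate 3 and came with a log2 change of 0.52. Leaving out KSRi replicate 1 gave 0.64 on the log2 scale (SE 0.33, edgeR adjusted p = 0.128), and it did not pass without KSRi replicate 2 or DMSO replicate 2 either (0.157 and 0.0606). IFITM3, at 0.707 ± 0.160 CPM in KSRi and 0.549 ± 0.175 CPM in DMSO (SD, n = 3 each), was not called.

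Sensors and regulators of RNA sensing gave both directions. DHX58, the RIG-I-like protein LGP2, averaged 16.6 ± 0.643 CPM in KSRi and 13.3 ± 0.342 CPM in DMSO, a log2 change of 0.32 (SE 0.08, edgeR adjusted p = 0.00605). IFIH1, the double-stranded RNA sensor MDA5, averaged 11 ± 1.76 CPM in KSRi and 11.9 ± 0.897 CPM in DMSO and was not called. TRIM25, the ubiquitin ligase that acts on RIG-I and the member with the highest CPM, had 202, 234 and 246 CPM in KSRi, against 287, 260.3 and 289 CPM in DMSO. EIF2AK2, the RNA-activated kinase PKR that shuts down translation, had 82.5, 73.3 and 76.4 CPM in KSRi, against 94.9, 97.0 and 96.0 CPM in DMSO. Both of these lay lower in every KSRi library than in any DMSO library. The log2 changes were -0.29 for TRIM25 (SE 0.07, edgeR adjusted p = 0.00394) and -0.31 for EIF2AK2 (SE 0.07, edgeR adjusted p = 0.00232).

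IFI27, a mitochondrial protein and a common blood marker of interferon exposure, was the fourth gene called lower. It had 2.25, 2.54 and 1.88 CPM in KSRi, against 2.64, 3.04 and 3.16 CPM in DMSO. The groups did not overlap, but the gap was small, and the log2 change of -0.38 (SE 0.14, edgeR adjusted p = 0.0327) did not pass without KSRi replicate 1, KSRi replicate 3, DMSO replicate 2 or DMSO replicate 3, where the adjusted p was 0.0610, 0.107, 0.0819 and 0.124.

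The other regulators gave small or uncertain changes. PARP9 averaged 42.1 ± 0.577 CPM in KSRi and 37.4 ± 0.844 CPM in DMSO, and its partner in a DNA repair and antiviral complex, DTX3L, averaged 107 ± 5.52 CPM in KSRi and 101 ± 1.38 CPM in DMSO (SD, n = 3 each). PARP9 passed with a log2 change of 0.17 (SE 0.06, edgeR adjusted p = 0.0420), which did not pass when any 1 of the 6 libraries was left out (adjusted p 0.0610 to 0.135), and DTX3L did not pass (0.08, edgeR adjusted p = 0.351). USP18, which removes ISG15 from proteins and dampens the type I receptor, and PARP14 had log2 changes of 0.10 (95% interval -0.14 to 0.35) and 0.09 (-0.09 to 0.27) and were not called. TRIM22, a ubiquitin ligase of the TRIM5 cluster, had 28, 33 and 9 counts in KSRi, against 5, 20 and 11 in DMSO. Its log2 change of 1.02 (SE 0.34, edgeR adjusted p = 0.0260) did not pass without KSRi replicate 1 or 2 or DMSO replicate 1 or 3, with adjusted p-values of 0.0698, 0.0883, 0.0882 and 0.134. TRIM22 overlaps TRIM5 on the opposite strand, with 0% of its exon bases shared, and the part of TRIM5 in its counts was not tested.

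SAMD9 and SAMD9L, neighbouring genes on chromosome 7 whose products restrict poxviruses and slow translation, turned on 1 library. SAMD9 had 85.2, 26.9 and 28.1 CPM in KSRi, against 54.4, 52.8 and 45.7 CPM in DMSO. SAMD9L had 17.9, 6.55 and 5.75 CPM in KSRi, against 11.9, 12 and 10.4 CPM in DMSO. For both genes KSRi replicate 1 lay above all DMSO libraries and the other 2 KSRi libraries below them. With all libraries neither was called, at log2 changes of -0.12 (SE 0.29, edgeR adjusted p = 0.775) and -0.16 (SE 0.27, edgeR adjusted p = 0.665). Without KSRi replicate 1 both were lower, at -0.89 (SE 0.09, edgeR adjusted p = 2.93e-07) for SAMD9 and -0.87 (SE 0.12, edgeR adjusted p = 9.64e-06) for SAMD9L.

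Besides IRF9, IFIT5, IFI27, IFITM1, TRIM22 and PARP9 above, 3 further genes changed call with the same library. SP100, a nuclear body protein, had 54.2, 34.1 and 34.6 CPM in KSRi, against 41.9, 43.8 and 41.5 CPM in DMSO. XAF1, a pro-apoptotic partner of XIAP, had 33.2, 20.1 and 22.5 CPM in KSRi, against 25.7, 30.0 and 24.9 CPM in DMSO. PML, which builds the nuclear bodies that hold SP100, had 117, 147 and 141 CPM in KSRi, against 127, 119 and 122 CPM in DMSO. KSRi replicate 1 lay above all DMSO libraries for SP100 and XAF1 and below them for PML, and the other 2 KSRi libraries lay on the opposite side. None of the 3 genes was called with all libraries. Without KSRi replicate 1, edgeR's adjusted p was 0.00418 for SP100 (log2 change -0.31), 0.00629 for XAF1 (-0.34) and 0.0115 for PML (0.23). In that fit 26 of the 37 were called, 17 higher and 9 lower, beside 47.0% of all genes, 25.9% higher and 21.2% lower.

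**Figure D3:**
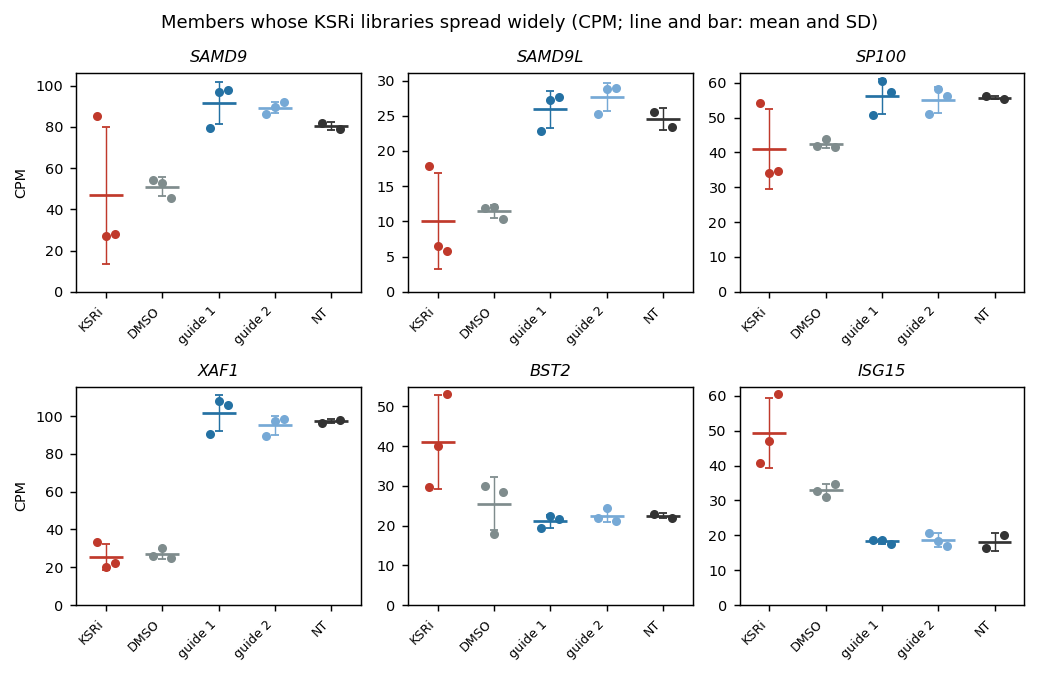
CPM of 6 members whose KSRi libraries spread widely, each point 1 library, with the group mean (line) and SD (bar). KSRi replicate 1, the leftmost KSRi point, is the highest for SAMD9, SAMD9L, SP100 and XAF1 and the lowest for BST2 and ISG15.

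The change with the inhibitor can be set beside the promoter letters. Among the 18 tested genes with ISRE letters, 8 were called higher and 2 lower, with a median log2 change of 0.23, and among all genes 22.0% were called higher and 18.7% lower, with a median of 0.02. Among the 9 tested genes whose listed promoters lack them, 3 were called higher and 2 lower, with a median of -0.09. The 10 genes with no promoter in the table, among them IRF7, MX2, IFIT2, OAS2 and OASL, had 8 called higher and a median of 0.70. STAT2, IFI35 and OAS1, all higher in KSRi, have no ISRE letters in the stretch searched.

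Neither guide moved the set detectably. The targeted gene KSR2 itself changed by a log2 value of -5.75 (SE 0.12, edgeR adjusted p = 6.89e-15) with guide 1 and -5.27 (SE 0.12, edgeR adjusted p = 1.48e-14) with guide 2. Of the 37 members, 0 were called against NT by edgeR with guide 1, with guide 2 or with both as 1 group, and DESeq2 and limma-voom also gave 0. Among all genes the called share was 0.00527% for guide 1, 0.0105% for guide 2 and 0.0158% for both. At an unadjusted p under 0.05 in edgeR's test, 1 member passed with guide 1 and with both guides, namely STAT2, and 0 with guide 2. Of all 18963 genes, 880 passed that cut with guide 1, 788 with both guides and 683 with guide 2.

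The precision of this arm limits how large a missed change could be. The 95% intervals of all 37 log2 changes lay within 1 in either direction for guide 1, for guide 2 and for both, and within 0.5 for 26, 28 and 30 genes. Estimates with both guides ran from -0.25 for IFITM3 to 0.28 for TRIM22, with a median of 0.00. STAT2 had 74.3, 73.3 and 77.0 CPM with guide 1 and 77.0, 68.9 and 68.6 CPM with guide 2, against 66.2 and 65.9 CPM in NT. Every guide library lay above both NT libraries, by a log2 change of 0.15 with both guides (95% interval 0.01 to 0.29, edgeR adjusted p = 0.989).

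Genes that moved most with the inhibitor stayed close to NT. IRF7 had 14.3, 13.7 and 13.1 CPM with guide 1 and 13.6, 11.4 and 12.8 CPM with guide 2, against 14.8 and 13.7 CPM in NT. IFI35 averaged 7.53 ± 0.226 CPM with guide 1 and 8.34 ± 0.673 CPM with guide 2 (SD, n = 3 each), against 8.08 ± 0.0161 CPM in NT (SD, n = 2). IRF1 averaged 79.5 ± 0.825 CPM with guide 1 and 80.7 ± 2.78 CPM with guide 2, against 80.6 ± 4.27 CPM in NT. The intervals with both guides were -0.36 to 0.13 for IRF7, -0.27 to 0.21 for IFI35 and -0.16 to 0.14 for IRF1, none of which reaches the size of that gene's change with the inhibitor.

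Between the guides, 0 members were called, beside 0.00527% of all genes. IFI44 alone had an unadjusted p under 0.05 in edgeR's test (0.0138), beside 614 of all 18963 genes. It had 1.07, 1.22 and 0.768 CPM with guide 2, against 1.66, 1.28 and 1.54 CPM with guide 1. Its guide 2 values all lay below its guide 1 values, and both lay around the 0.868 and 1.48 CPM of NT.

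**Figure D4:**
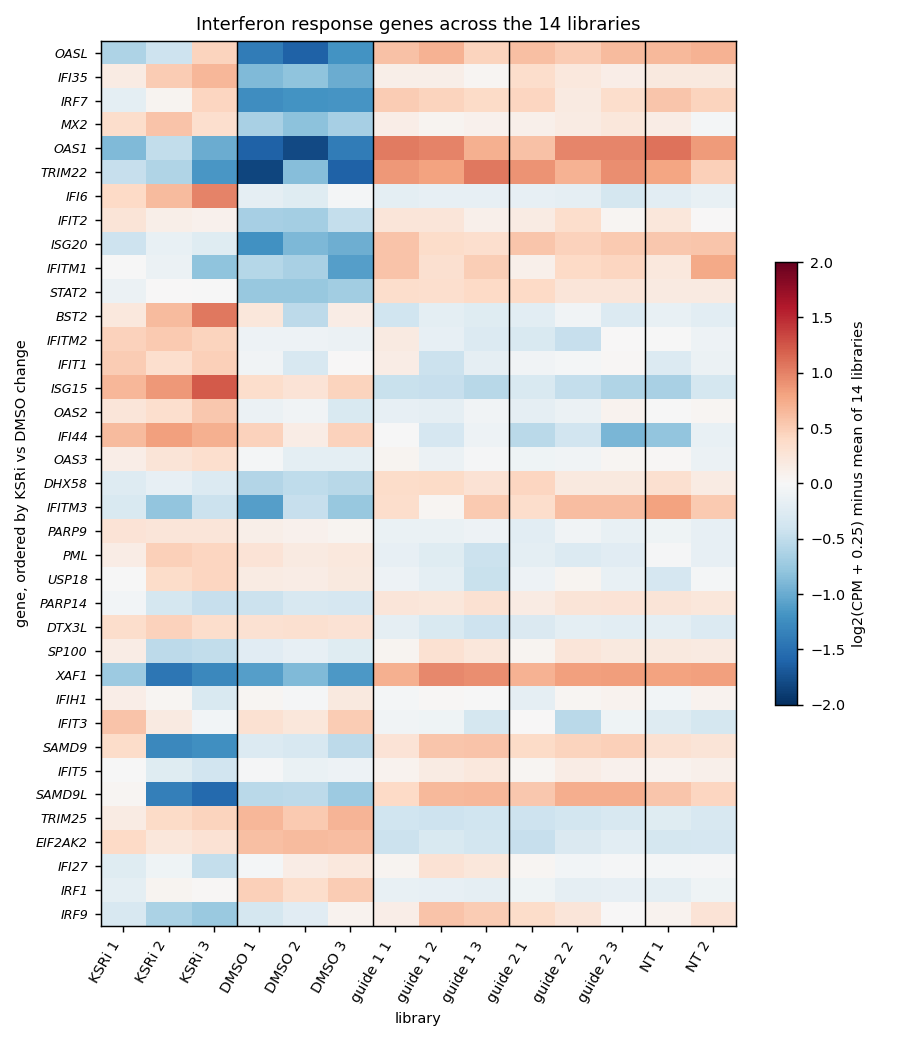
Level of the 37 tested genes (rows, ordered by their change in KSRi) in each of the 14 libraries (columns), as log2(CPM + 0.25) minus the gene's mean over the libraries. Guide and NT columns look alike, KSRi replicate 1 departs from the other KSRi columns at SAMD9 and SAMD9L, and the 2 arms differ in many rows.

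The difference between the inhibitor effect and the guide effect was tested as 1 contrast, KSRi minus DMSO less the mean of both guides minus NT. It passed for 16 of the 37 members, 14 in the direction of a higher inhibitor effect and 2 (IRF1 and EIF2AK2) in that of a lower one. Among all genes 28.6% passed, 16.6% higher and 12.1% lower. The median difference was 0.36 over the set and 0.03 over all genes. By edgeR the difference was 1.42 for IFI35 (SE 0.17, adjusted p = 1.40e-05), 1.48 for IRF7 (SE 0.18, adjusted p = 1.80e-05) and 1.11 for MX2 (SE 0.14, adjusted p = 2.86e-05). ISG20, STAT2 and IFI6 followed, with log2 differences of 0.86 (edgeR adjusted p = 0.000322), 0.55 (0.000364) and 0.88 (0.00104).

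Of these 16 calls, 10 held under every alternative in which the gene was tested, stricter thresholds aside. The 6 that did not were ISG15, IFITM2, OAS1, OAS3, BST2 and EIF2AK2. ISG15 did not pass without DMSO replicate 2 or NT replicate 2 (edgeR adjusted p = 0.0555 and 0.162), IFITM2 without NT replicate 1 (0.0572) or OAS1 without KSRi replicate 2 (0.0507). OAS3 did not pass without KSRi replicate 2 or 3, DMSO replicate 2 or 3 or NT replicate 1 (edgeR adjusted p 0.0538 to 0.153), nor EIF2AK2 without KSRi replicate 2, DMSO replicate 2 or 3 or either NT library (0.0553 to 0.106). BST2 passed without KSRi replicate 1, DMSO replicate 1 or 3 or guide 2 replicate 2, and not without any other single library (edgeR adjusted p 0.0523 to 0.130). Without KSRi replicate 1, 22 members passed, 15 higher and 7 lower, while the share of all genes was 38.9%, 21.8% higher and 17.1% lower. SAMD9 then differed by -1.06 (SE 0.12, edgeR adjusted p = 1.69e-06) and SAMD9L by -1.0 (SE 0.15, edgeR adjusted p = 3.63e-05). The 2 arms do not share a control, and the sources used here do not say whether they were cultured or sequenced alike.

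The controls of the 2 arms also differed from each other. In NT against DMSO, 26 of the 37 members were called, 16 higher and 10 lower. Of all genes, 65.8% were called, 34.6% higher and 31.2% lower. The called share of the set, 70.3%, is near that of all genes, so most of the table differed between these controls. With upper-quartile scaling, which puts the median log2 change of all genes at 0.26 in place of 0.04, the split was 21 higher and 6 lower, beside 43.7% higher and 22.1% lower of all genes. Any differences in culture, vector or library between the arms enter this contrast at once, and these cannot be told apart. The B cell marker CD79A had 67.9 and 46.7 CPM in NT, against 23.0, 21.8 and 22.2 CPM in DMSO, and the mitochondrial share was 2.5% and 1.85% in NT, against 1.45%, 1.36% and 1.27% in DMSO; their part in these differences was not tested. The contrast shares the DMSO libraries with the inhibitor comparison.

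Basal levels of several members were far apart in the 2 arms. OAS1 had 5.75 and 4.86 CPM in NT, against 0.670, 0.562 and 0.828 CPM in DMSO, a log2 change of 2.91 (SE 0.22, edgeR adjusted p = 4.68e-09). XAF1 had 96.5 and 98.2 CPM in NT, against 25.7, 30.0 and 24.9 CPM in DMSO, a log2 change of 1.86 (SE 0.15, edgeR adjusted p = 9.46e-09). ISG20 had 17.0 and 17.2 CPM in NT, against 4.86, 6.15 and 5.77 CPM in DMSO, a log2 change of 1.61 (SE 0.11, edgeR adjusted p = 2.18e-09). Both NT libraries lay above all DMSO libraries for these 3 genes.

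The transcription factors differed too. IRF7 had 14.8 and 13.7 CPM in NT, against 4.10, 4.20 and 4.27 CPM in DMSO, and STAT2 had 66.2 and 65.9 CPM in NT, against 34.2, 34.5 and 36.0 CPM in DMSO. The log2 changes were 1.76 (SE 0.14, edgeR adjusted p = 1.33e-08) and 0.92 (SE 0.07, edgeR adjusted p = 9.20e-09). IRF1 was lower in NT, at 77.6 and 83.7 CPM against 124, 114 and 127 CPM in DMSO (log2 change -0.59, edgeR adjusted p = 6.85e-06). EIF2AK2 was lower as well, at 49.1 and 49.8 CPM in NT against 94.9, 97.0 and 96.0 CPM in DMSO (log2 change -0.96, SE 0.08, edgeR adjusted p = 2.49e-08). ISG15 was lower too, at 16.3 and 20 CPM in NT against 32.7, 31.1 and 34.8 CPM in DMSO (log2 change -0.85, edgeR adjusted p = 4.91e-05).

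Some families differed between the controls only in part. IFITM1 and IFITM3 averaged 1.70 ± 0.512 and 1.89 ± 0.287 CPM in NT (SD, n = 2), against 0.562 ± 0.152 and 0.549 ± 0.175 CPM in DMSO (SD, n = 3), log2 changes of 1.67 (SE 0.29, edgeR adjusted p = 6.81e-05) and 1.74 (SE 0.26, edgeR adjusted p = 1.76e-05). ENSG00000255328, on the opposite strand, covers 21.3% of the IFITM3 exon bases and was higher in NT by 2.18 (SE 0.46, edgeR adjusted p = 0.000486). ENSG00000251661 and ENSG00000254910 lie opposite IFITM3 and IFITM2, with 0% of their exon bases shared, and were higher by 3.18 and 4.09. The part of these neighbours in the IFITM counts was not tested. IFITM2 averaged 5.39 ± 0.257 CPM in NT and 5.21 ± 0.0318 CPM in DMSO and was not called. OAS2 and OAS3 were not called either, at log2 changes of 0.18 (95% interval -0.05 to 0.42) and 0.09 (-0.10 to 0.28), while OASL had 2.68 and 2.80 CPM in NT, against 0.460, 0.364 and 0.569 CPM in DMSO (log2 change 2.53, SE 0.28, edgeR adjusted p = 5.61e-07). With upper-quartile scaling OAS2 and OAS3 did pass, at 0.40 and 0.30. IFIT2 was called higher in NT (0.74), IFIT3 lower (-0.81, not passing without NT replicate 2, edgeR adjusted p = 0.0744), and IFIT1 and IFIT5 were not called.

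Across the groups, the basal level of the set was uneven. Members with a mean of at least 1 CPM numbered 34 of 39 in KSRi and 32 in DMSO, and 37 with guide 1, 37 with guide 2 and 36 in NT. Per kilobase of exon, BST2 led in NT at 20.1 CPM per kb, followed by ISG15 at 19.3, TRIM25 at 15.6 and XAF1 at 14.7 CPM per kb. In KSRi the order was ISG15 at 52.4, BST2 at 36.6, IFI6 at 26.3 and TRIM25 at 23.9 CPM per kb, and in DMSO it was ISG15 at 35.0, TRIM25 at 29.3 and BST2 at 22.7 CPM per kb. MX1 and IFI44L were the lowest members in each of the 5 groups.

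Interferon transcripts were at the limit of detection. Of the 21 interferon genes in the table, 17 had 0 counts in every library, 0 passed the filter, and the highest count of any of them in 1 library was 6, of IFNB1. A count of 0 allows up to 3 counts, or 0.0654 to 0.138 CPM depending on the library, for counting error only.

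Receptors and kinases were expressed. All 9 were tested, and 3 were higher in KSRi and 1 lower, beside 22.0% higher and 18.7% lower of all genes, with a median log2 change of 0.18 against 0.02 over all genes. The called share of this list, 44.4%, is near the 40.7% of all genes. TYK2 had 207, 235 and 274 CPM in KSRi, against 157, 157 and 163 CPM in DMSO (log2 change 0.58, SE 0.08, edgeR adjusted p = 4.33e-05). JAK1 rose by 0.20 and IFNLR1, the lambda receptor, by 1.08, the second at 1.95 to 2.62 CPM in KSRi against 1.00 to 1.26 CPM in DMSO. IFNAR2 was lower, at 27.9 to 30.7 CPM in KSRi against 31.9 to 34.8 CPM in DMSO (log2 change -0.18, edgeR adjusted p = 0.0411).

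Upstream sensing genes were mixed. Of 16 tested, 3 were higher and 2 lower (31.2%, against 40.7% of all genes), with a median of -0.07. STING1, the adaptor of cytosolic DNA sensing, had 50.5, 56.7 and 65.4 CPM in KSRi, against 36.6, 34.8 and 36.5 CPM in DMSO (log2 change 0.68, edgeR adjusted p = 2.65e-05). IFI16, a DNA sensor that is also on the list of other interferon-induced genes, had 268, 235 and 204 CPM in KSRi, against 376, 367 and 332 CPM in DMSO (log2 change -0.61, edgeR adjusted p = 3.10e-05). The adaptor TRAF3 was lower too, at 128 to 142 CPM in KSRi against 168 to 171 CPM in DMSO. Of the 7 other IRF factors tested, IRF2 and IRF5 were higher and IRF8 lower. Their called share, 42.9%, is near the 40.7% of all genes. IRF5 stayed at 0.161 to 0.302 CPM in KSRi against 0.0776 to 0.132 CPM in DMSO.

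Inhibitors of the pathway moved both ways. Of 15 tested, 2 were higher and 6 lower, beside 22.0% higher and 18.7% lower of all genes, with a median of -0.15. PTPN2, a phosphatase that acts on JAK kinases, had 103, 97.9 and 89.9 CPM in KSRi, against 149, 154 and 149 CPM in DMSO (log2 change -0.64, SE 0.07, edgeR adjusted p = 2.05e-06). PTPN11, the phosphatase SHP2, had 306 to 323 CPM in KSRi, against 366 to 384 CPM in DMSO (log2 change -0.25, edgeR adjusted p = 0.00669).

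Other interferon-induced genes outside the set were tested as well. Of 44, 16 were higher in KSRi and 5 lower, beside 22.0% higher and 18.7% lower of all genes. The median log2 change was 0.15, against 0.02 over all genes. The called share in either direction, 47.7%, is near the 40.7% of all genes. TRIM5, a restriction factor of retroviral capsids, had 24.0, 27.0 and 25.8 CPM in KSRi, against 14, 14.5 and 13.9 CPM in DMSO (log2 change 0.86, edgeR adjusted p = 2.33e-07). RSAD2, or viperin, had 16.6, 15.3 and 15.6 CPM in KSRi, against 9.21, 10.1 and 9.70 CPM in DMSO (log2 change 0.71, edgeR adjusted p = 9.77e-06). HELZ2 and SLFN5 rose by 1.04 and 0.90.

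The APOBEC3 and class I genes gave mostly rises. Of 5 tested APOBEC3 cytidine deaminases, 4 were higher, with a median of 1.15, and APOBEC3F had 15.5, 21.1 and 20.8 CPM in KSRi, against 8.71, 8.99 and 7.73 CPM in DMSO (log2 change 1.18, edgeR adjusted p = 5.54e-07). Of 16 genes of MHC class I and peptide loading, 11 were higher and 0 lower, with a median of 0.44, while 22.0% of all genes were called higher and 18.7% lower. TAPBP, the chaperone tapasin, had 119, 146 and 151 CPM in KSRi, against 98.8, 99.3 and 93.2 CPM in DMSO (log2 change 0.52, edgeR adjusted p = 0.000183), with KSRi replicate 1 the lowest of its group. The APOBEC3 genes, and likewise the class I heavy chains, resemble each other closely, so the split of reads among them is uncertain. None of these lists had a gene called with either guide.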

How the data were processed

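RNA was sequenced from 14 Jurkat libraries, after RNeasy extraction and Watchmaker library preparation per the labels' protocols. The authors deposited raw counts, 1 row per Ensembl gene. The submitters' processing notes name STAR 2.7.11b, DESeq2 1.42.1 and GRCh38; the sources used here do not name the counting program, its strand setting or the annotation, which bears on overlapping genes and close copies. Of the 61541 rows, 25747 were 0 in all libraries.

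The counts were scaled with TMM, filtered by group with filterByExpr and fitted in edgeR 4.0.16 (R 4.3.3), with 1 mean per group over all 14 libraries, quasi-likelihood F tests and Benjamini-Hochberg adjustment over all 18963 tested genes, with calls at 0.05. The common biological coefficient of variation was 8.6%, and the fit was tested on simulated data. Groups were KSRi, DMSO, guide 1, guide 2 and NT. KSRi was compared with DMSO, each guide and both guides with NT, guide 2 with guide 1, NT with DMSO, and the effect of the inhibitor with that of the guides. CPM values use TMM-scaled library sizes, and CPM per kb divides them by the exon bases of the GENCODE annotation of GRCh38. Intervals on log2 changes are 95% t intervals. Library totals of 21710466 to 45897075 counts set the precision, and limits from counts cover counting error only.

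Alternatives tried were upper-quartile or RLE scaling, every gene kept, at least 5 CPM in 3 libraries, DESeq2 1.42.0, limma-voom 3.58.1, only the groups compared, a replicate block, each library left out, and stricter thresholds. The members, the other lists and the rule for named genes were chosen with earlier results of these data known. Values per library are given for the 4 transcription factors, the 10 largest rises at 1 CPM or more and the largest falls with the inhibitor, the 6 lowest p-values of the difference between arms and of NT against DMSO, and gene families described together; from each other list, up to 4 called genes were eligible. IFI44 between guides was named after its values were seen, as were STAT2 with guides and the TRIM22 and PARP9 checks. Comparison of protein sequences between relatives was not run, and shared 50-base runs of transcripts were counted in its place. Some items of the lists are not reported here.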

Additional observations from a re-analysis of the deposited data

How the results depend on the processing

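Of the 23 members called in KSRi against DMSO, 19 were called under every alternative in which they were tested, stricter thresholds aside. IFI27, IFITM1, TRIM22 and PARP9 were not. The number called was 21 with RLE factors, 23 with upper-quartile factors, 21 with no low-count filter, 18 with 5 CPM in 3 libraries (28 members tested), 21 with DESeq2, 22 with limma-voom, 19 with only the groups compared and 19 at an adjusted p under 0.01, where calls over all genes ran from 5204 to 7736. These settings tested 11600 to 35794 genes, and 6082 of 11600 were called with 5 CPM in 3 libraries. Leaving out 1 library of a group of 3 gave 19 to 26 members in KSRi against DMSO, beside 6209 to 8928 of all genes. It gave 24 to 26 members in NT against DMSO, beside 11528 to 11821 of all genes. In the difference between the arms it gave 13 to 22, beside 4243 to 7377 of all genes. Every comparison of guides then gave 0 members, beside 1 to 3 of all genes. Asking for at least 2-fold left 6 in KSRi against DMSO, 10 in NT against DMSO and 5 in the difference between the arms, by construction, and 1475, 5292 and 1413 of all genes. In NT against DMSO, 20 of 26 calls held where tested, stricter thresholds aside (not IFI44, IFIT3, USP18, PARP9, PML and SP100). There PARP9 had a log2 change of 0.00 with upper-quartile factors, against -0.21 with TMM. In the difference between the arms, 10 of 16 held in the same sense. The comparison by only the groups compared was not run for that difference, which uses all groups.

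Deviations of same-numbered libraries correlated at -0.26, -0.18 and 0.15 between KSRi and DMSO and at 0.01, 0.15 and -0.11 between the guides, and, with 2 pairs each, at 0.34 and 0.26 between guide 1 and NT, 0.05 and 0.20 between guide 2 and NT and 0.13 and 0.11 between NT and DMSO, so the numbers were not taken as pairs. With a replicate block, 21 members were called in KSRi against DMSO, 25 in NT against DMSO, 15 in the difference between the arms and 0 in the guide comparisons. Of all genes, 7217, 11958 and 4733 were called in the first 3 of these, and 1 to 3 in the guide comparisons.

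Limits are the 2 NT libraries, low counts of MX1, IFI44L, IFITM1, OAS1 and TRIM22, and close copies among the IFITM genes. Neighbours that overlap IRF1, IRF9, IFIT1, IFIT2, IFIT3, IFITM1, IFITM2, IFITM3 and TRIM22 are a further limit.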
